A study of Mus musculus with 2 samples.

Results

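STAT5 peaks were examined at 9 genes of phosphoinositide 3-kinase (PI3 kinase) signalling: the catalytic subunit genes Pik3cd, Pik3ca, Pik3cb and Pik3cg, the regulatory subunit gene Pik3r1, the adaptor gene Pik3ap1, the kinase genes Akt1 and Akt2, and Inpp5d, which encodes an opposing lipid phosphatase. They were named by role, with results of these data known, out of 21779 protein-coding genes placed on the mouse chromosomes. A peak was assigned to a gene when its midpoint lay inside the gene or within 20 kb of either end, and 11 of the 5908 deposited peaks (0.186%) met this rule for the 9 genes. The cells were B cell progenitor leukemia cells from lymph nodes of a C57BL/6 mouse of genotype Stat5b-CAxBlnk+/-, that is, with a transgene for a constantly active form of Stat5b and with Blnk, which encodes an adaptor of the pre-B cell receptor, altered on 1 chromosome copy. Both libraries of the series, 1 STAT5 ChIP-seq library and 1 input library of sonicated chromatin, came from this genotype, and each was made after 10 ng/mL IL7 for 30 minutes. The labels mention neither sorting of the lymph node cells nor what drives the transgene. There is no library without the transgene, with intact Blnk or without IL7 among the samples, and positions of peaks cannot check the labelled cell type.

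PI3 kinases phosphorylate a membrane lipid to make PIP3, which recruits Akt and other proteins with lipid-binding domains to the membrane. Class IA enzymes pair a catalytic subunit (the products of Pik3ca, Pik3cb and Pik3cd) with a regulatory subunit such as those encoded by Pik3r1, while the Pik3cg product works with its own regulators downstream of G protein-coupled receptors. In B cell progenitors the pathway carries signals of the IL7 receptor and the pre-B cell receptor, and lipid phosphatases such as that encoded by Inpp5d remove PIP3. STAT5 is the transcription factor that the IL7 receptor activates.

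A STAT5 peak was listed at 7 of the 9 genes (77.8%). The same rule marked 21.6% of all protein-coding genes. Pik3cd had 5 peaks, Pik3ca, Pik3r1, Pik3ap1, Inpp5d, Akt1 and Akt2 had 1 each, and Pik3cb and Pik3cg had none. The mean was 1.22 peaks per gene, against 0.329 over all protein-coding genes, and the median was 1 against 0. With 1 peak list and no replicate there is no spread to compare these counts with. No test was made, because the genes were chosen with results of these data known. The list holds positions without height or significance, and its threshold is unknown, so lack of a listed peak does not show lack of STAT5.

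**Figure D1:**
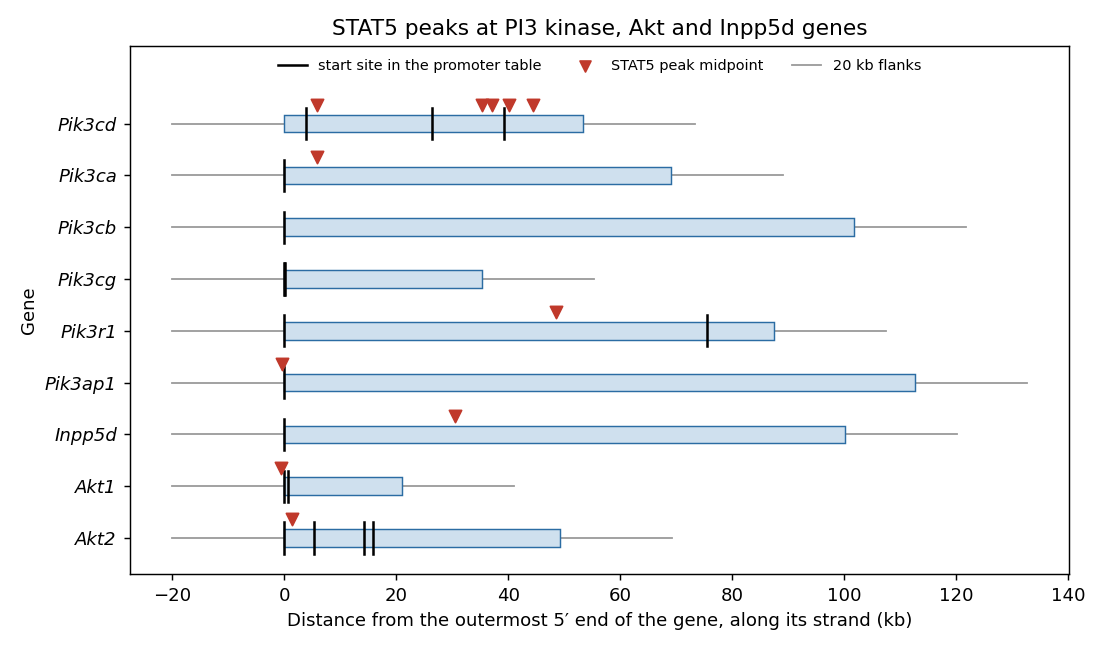
Each bar is 1 of the 9 genes, drawn from its outermost 5′ end along its strand (x axis, kb), with 20 kb flanks as thin lines, annotated start sites as black ticks and STAT5 peak midpoints as red triangles. Pik3cd carries 5 triangles, 4 of them close together, while Pik3cb and Pik3cg carry none.

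Long genes offer more room for a peak, so the counts were set beside genes of like length. Protein-coding genes were split into 5 length classes of equal size. In the class of greatest length (57.3 kb and over), 32.1% had a peak, and 4 of the 5 genes of this set that fell there had one: Pik3ca, Pik3r1, Pik3ap1 and Inpp5d, but not Pik3cb. In the class below it (24.6 to 57.3 kb), 25.3% had a peak, and Pik3cd and Akt2 had one while Pik3cg did not. Akt1, in the middle class, had a peak where 22.1% of genes did.

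Pik3cd, which encodes p110delta, the catalytic subunit enriched in leukocytes, held the most peaks. It lies on the minus strand of chromosome 4 from 149649168 to 149702566 (GRCm38, the same coordinates as mm10), a length of 53.4 kb, and all 5 peaks fell inside it. Only 0.5% of protein-coding genes (109 genes) had at least 5 peaks, and 0.298% of those in its length class. Its density, 5.35 peaks per 100 kb of gene and flanks, was exceeded by 0.767% of protein-coding genes. The genes outside the PI3 kinase lists with the same number of peaks and the nearest length were St3gal2, Bfsp2 and Katnal1, at 54.3, 55.5 and 57.6 kb, out of 52 genes with 5 peaks.

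**Figure D2:**
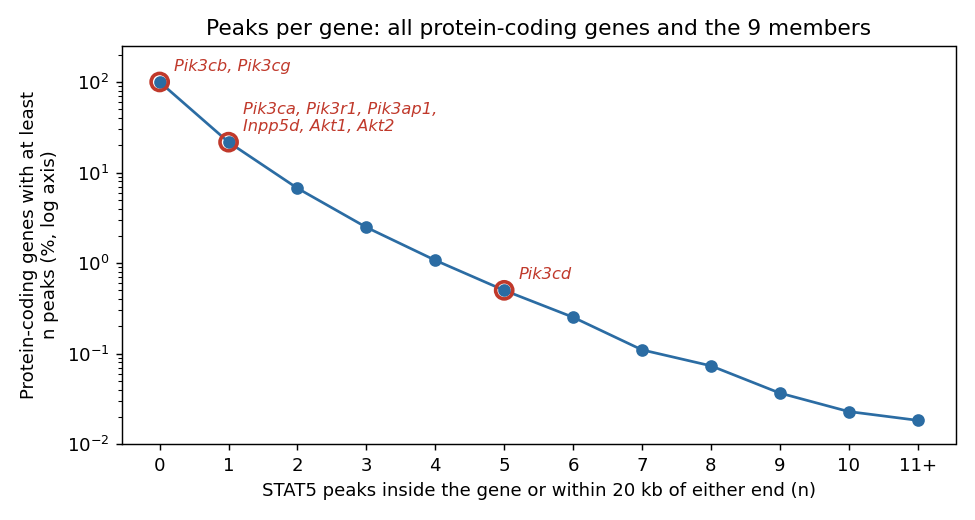
The line gives the share of protein-coding genes (y axis, %, log scale) with at least n STAT5 peaks inside or within 20 kb (x axis), and red circles mark where the 9 genes stand. Pik3cd stands at 5 peaks, a level reached by 0.5% of genes, and 6 of the others stand at 1 peak, reached by 21.6%.

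The Pik3cd peaks fell into a lone peak near the 5′ end and a group of 4 in the 3′ part of the gene. In the direction of transcription, the first peak (149696464 to 149696799, 336 bp) lay 5.9 kb from the outermost 5′ end, and 2077 bp downstream of the first start site in the RefSeq promoter table. The second (149667090 to 149667327) was 238 bp wide and followed after 29.4 kb. The third (149665238 to 149665788) was 551 bp wide, wider than 92.3% of all peaks.

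The fourth (149662354 to 149662554), of 201 bp, lay 862 bp downstream of the third start site in that table. The fifth (149657825 to 149658440) measured 616 bp, wider than 94.9% of all peaks, and stood on line 29 of the deposited order. The 4 peaks of the group spanned 9.5 kb, 66.2 to 83.2% of the way along the gene, with 1.7 to 4.3 kb between neighbouring midpoints. In the genome, 23 separate regions, this one included, had 4 peaks in so short a span. The span was taken from this group itself, so the count is a description only. With peaks closer than 5 kb counted as 1, the group became a single interval and Pik3cd had 2 peaks.

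**Figure D3:**
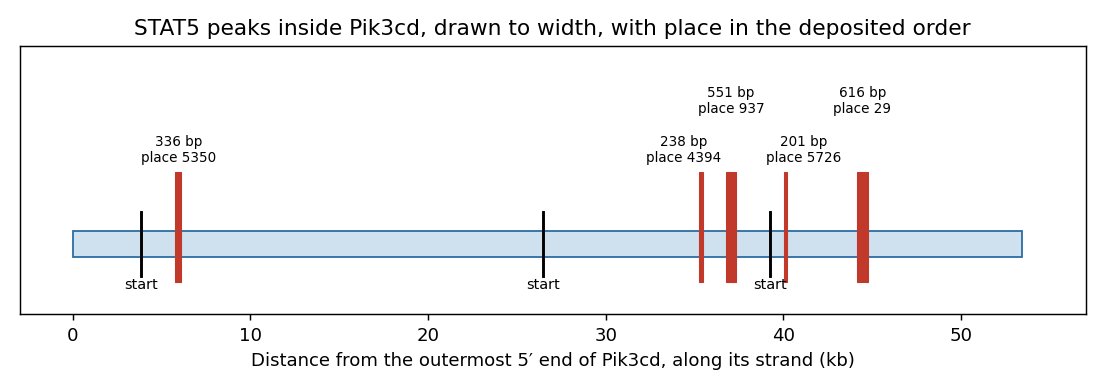
The bar is Pik3cd along its strand (x axis, kb from the outermost 5′ end), black ticks are annotated start sites and red bands are the STAT5 peaks drawn to their width, labelled with width and line number. The 616 bp and 551 bp peaks of the group stand on lines 29 and 937, and the other 3 on lines 4394 to 5726.

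The third start site lies within the group, with peaks 3893 and 2197 bp upstream and 862 and 5184 bp downstream. The 250 bases before it are shown because this is the annotated start that the group surrounds (RefSeq, GRCm38.p6, chr4:149663317-149663566, minus strand, 5′ to 3′, no capitals because no motif searched was found in it).
Pik3cd, innermost start: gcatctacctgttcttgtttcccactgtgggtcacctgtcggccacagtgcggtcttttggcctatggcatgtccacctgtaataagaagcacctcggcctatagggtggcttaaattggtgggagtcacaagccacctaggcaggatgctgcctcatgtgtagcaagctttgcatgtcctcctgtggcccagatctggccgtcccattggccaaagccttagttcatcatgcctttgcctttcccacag
The sequence ends in cag, the letters that also close introns, and whether transcripts begin here was not tested. Its near edge lay 763 bp from the closest peak, so none of these bases was under a peak. The 4 peaks of the group were also within 20 kb of Clstn1, at 9234 to 18310 bp from it, and the first peak was 18744 bp from Tmem201. By position alone they were assigned to both genes, although each lay inside Pik3cd.

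Of the other class IA subunit genes in this set, Pik3ca and Pik3r1 had a peak inside the gene and Pik3cb had none. Pik3ca, which encodes the widely expressed subunit p110alpha (chromosome 3, 32397065 to 32466112, plus strand), had its peak at 32402773 to 32403158, 5901 bp downstream of its start. The peak was 386 bp wide and stood on line 2759. Pik3r1, which encodes p85alpha and shorter regulatory forms (chromosome 13, 101680761 to 101768217, minus strand), had its peak at 101719414 to 101719769. It was 356 bp wide, 55.6% of the way along the gene and 26962 bp upstream of the second annotated start.

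Pik3cb, the gene of p110beta (chromosome 9, 99038402 to 99140235), had no peak within 103.1 kb. Pik3cg, the gene of p110gamma (chromosome 12, 32173397 to 32208677), had none within 65.0 kb. Among the 4 catalytic subunit genes the order was thus 5 peaks at Pik3cd, 1 at Pik3ca and none at Pik3cb or Pik3cg. Flanks of 50 kb left Pik3cb and Pik3cg without a peak. Assignment of each peak to its nearest gene gave Pik3cg the peak 65.0 kb away.

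Pik3ap1 encodes BCAP, an adaptor that links B cell receptor signals to PI3 kinase (chromosome 19, 41272541 to 41385102, minus strand). Its peak, 41385346 to 41385543, lay 343 bp upstream of its only start site in the table. At 198 bp it was among the narrowest of the list, with 2.96% of peaks narrower. It was the only peak of the 11 to overlap a promoter window, 250 bases before a start to 50 from it on, of a gene in this set. The 250 bases before the start are shown with the 7 bases under the peak in capitals (chr19:41385103-41385352, minus strand).
Pik3ap1: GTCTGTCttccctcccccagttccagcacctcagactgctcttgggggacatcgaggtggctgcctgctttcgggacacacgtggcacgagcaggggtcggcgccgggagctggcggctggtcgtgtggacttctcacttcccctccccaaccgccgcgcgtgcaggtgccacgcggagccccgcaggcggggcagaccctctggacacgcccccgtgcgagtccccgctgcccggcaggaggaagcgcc
The rest of the peak extends away from the gene, beyond the first base shown.

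Inpp5d encodes SHIP1, which removes a phosphate from PIP3 in blood cells (chromosome 1, 87620312 to 87720510, plus strand). Its peak at 87650739 to 87650969 was 231 bp wide and lay 30542 bp downstream of the start, 30.5% of the way along the gene. Flanks of 50 kb raised its count to 3, with peaks 35.4 and 45.8 kb outside the gene, both of them within 20 kb of Atg16l1.

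Akt1 and Akt2 encode the kinases that PIP3 recruits, and each had 1 peak near its first start site. The Akt1 peak (chromosome 12, 112675351 to 112675747) lay 665 bp upstream of the outermost start of the gene (112653821 to 112674884, minus strand), within the long noncoding RNA gene Gm30150 and 3099 bp from Zbtb42. It was 397 bp wide, wider than 76.6% of peaks, and stood on line 316. The Akt2 peak (chromosome 7, 27592748 to 27592960) lay inside the gene (27591552 to 27640826, plus strand), 1302 bp downstream of the first of 4 annotated starts. It was 213 bp wide, stood on line 4285 and was also within 20 kb of 2310022A10Rik, at 10755 bp. Flanks of 50 kb gave Akt1 and Akt2 1 more peak each, 35.6 and 46.2 kb outside the gene.

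The sequences before the Akt1, Akt2 and Inpp5d starts are shown because a peak lay near the Akt1 and Akt2 starts, and because Akt2 and Inpp5d held the only matches to the motifs searched. These were TTCNNNGAA, the palindrome that STAT dimers recognise, and a longer form with 4 bases in place of 3 between the arms TTC and GAA. Both read the same on either strand, and they share these arms, so 1 arm can belong to a match of each. Capitals mark the match (Akt1 chr12:112674885-112675134, minus strand; Akt2 chr7:27591302-27591551, plus strand; Inpp5d chr1:87620062-87620311, plus strand).
Akt1, outermost start: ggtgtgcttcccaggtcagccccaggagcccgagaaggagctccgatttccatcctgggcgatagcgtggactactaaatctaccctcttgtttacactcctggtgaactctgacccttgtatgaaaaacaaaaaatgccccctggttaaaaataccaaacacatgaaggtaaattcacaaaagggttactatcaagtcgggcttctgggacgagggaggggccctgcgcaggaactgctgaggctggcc
Akt2, first start: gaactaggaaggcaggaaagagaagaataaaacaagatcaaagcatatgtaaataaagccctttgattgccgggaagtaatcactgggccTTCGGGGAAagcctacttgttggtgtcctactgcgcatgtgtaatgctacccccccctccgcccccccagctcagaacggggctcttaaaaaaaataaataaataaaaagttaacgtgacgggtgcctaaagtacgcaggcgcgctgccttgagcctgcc
Inpp5d: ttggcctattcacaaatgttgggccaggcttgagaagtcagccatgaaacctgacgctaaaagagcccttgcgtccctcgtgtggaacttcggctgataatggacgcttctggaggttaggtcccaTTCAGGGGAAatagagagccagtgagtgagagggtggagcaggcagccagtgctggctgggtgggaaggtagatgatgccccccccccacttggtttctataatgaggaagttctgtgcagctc
The Akt2 match TTCGGGGAA begins at position -160 from the start (chromosome 7, 27591392 to 27591400), but 1348 bp from the closest edge of the Akt2 peak. The Inpp5d match TTCAGGGGAA (chromosome 1, 87620188 to 87620197) was 30542 bp from the closest peak. Neither lay under a peak. The Akt1 window ended 217 bp short of the Akt1 peak. Of the 17 promoter windows of the 9 genes, 1 (5.88%) held TTCNNNGAA, against 8.3% of all 32851 windows of the same length, and 1 (5.88%) held the longer form, against 6.95%. The bases under the peaks themselves were not analysed here, apart from the 7 at Pik3ap1.

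The promoters of the 9 genes had a wide range of base composition. The window of Pik3cb had 79.0% G and C and 44 CpG dinucleotides, and the outermost window of Pik3cg 40.7% and 4. These 2 genes without a peak thus stood near the upper and lower ends of the set. The second Akt1 window (79.7%, 42 CpG) and the outermost Pik3r1 window (75.7%, 34 CpG) resembled that of Pik3cb, although both genes had a peak. The median was 54.0% over the 17 windows and 52.7% over all windows.

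Of the 11 peaks, 9 lay inside one of the 9 genes, and the other 2, at Pik3ap1 and Akt1, lay upstream of the start. A peak lay inside the gene body for 5 of the 9 genes, where 9.85% of all protein-coding genes had one. That share is not matched for length, and the median length was 69.0 kb for the 9 genes against 17.2 kb over all. Within 1 kb of an annotated start lay 3 peaks (27.3%), those of Pik3ap1, Akt1 and the fourth of Pik3cd, against 16.2% of all peaks. The median distance to the nearest annotated start of any gene was 2197 bp, against 14650 bp over the 5901 peaks on assembled chromosomes. That median and the count within 1 kb rest in part on the third Pik3cd start, and whether transcripts begin there was not tested. From the second Pik3cd start, the peaks of the Pik3cd group lay 8881 to 17957 bp downstream. Peaks inside or near genes are by construction closer to starts, and 5 of the 11 share 1 gene.

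The narrowest of the 11 peaks measured 198 bp and the widest 616 bp. Their median width was 336 bp, against 295 bp over all peaks, whose quartiles were 236 and 388 bp. The widest 2 were in Pik3cd, followed by those of Akt1 and Pik3ca. The lines of the deposited list follow an order with no stated key, so a place in it is not a measure of binding. Wider peaks tended to come earlier, with a median of 358 bp in the first 2954 lines and 241 bp in the rest, and single peaks departed from this. In that order 4 of the 11 stood in the first 2954 lines: the fifth and the third of Pik3cd and those of Akt1 and Pik3ca. The peaks of Pik3r1, Pik3ap1, Akt2 and Inpp5d stood on lines 3988 to 4427.

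**Figure D4:**
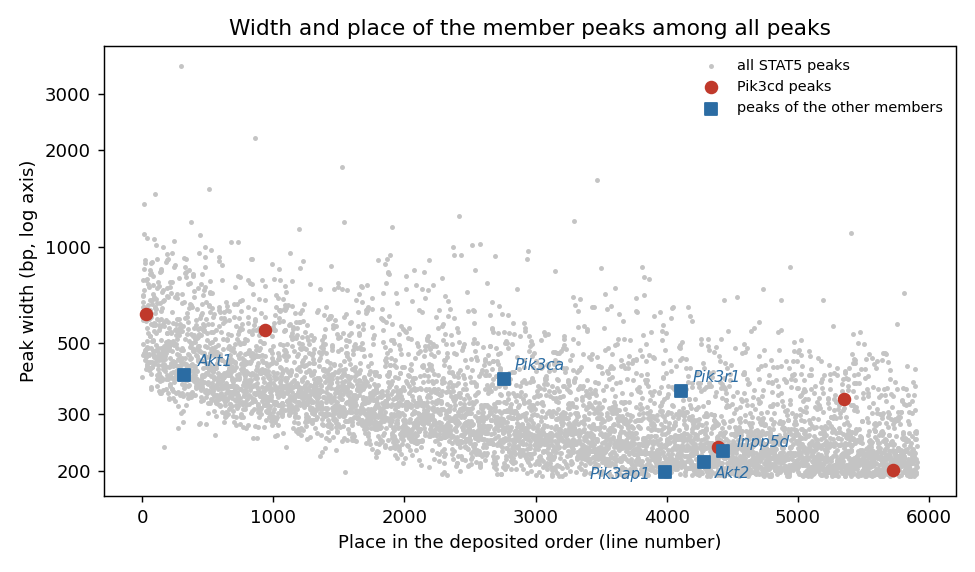
Each grey point is 1 of the 5908 STAT5 peaks by its line number in the deposited list (x axis) and its width (y axis, bp, log scale), with the Pik3cd peaks as red circles and those of the other members as blue squares. Pik3cd has peaks at both ends of the order, from line 29 to line 5726, and Akt1 on line 316.

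Other genes of the pathway were counted by the same rule in 5 lists, in which neighbouring genes can share a peak. Of 73 genes, 40 (54.8%) had a peak, beside 21.6% of all protein-coding genes, but their median length was 66.2 kb against 17.2 kb. The median length of each list falls in the class of greatest gene length, where 32.1% of protein-coding genes had a peak. Each list also holds genes shorter than this class, so that share is not a length match. No list was tested. Among 10 other PI3 kinase subunit and inhibitor genes, 7 had a peak (70.0%). Pik3r5 and Pik3r6, which encode the regulators of p110gamma, had 5 and 3 peaks, 2 of them shared, which makes 6 distinct peaks beside the absence of a listed peak at Pik3cg. One Pik3r5 peak stood on line 115 (chromosome 11, 68451275 to 68451643, 369 bp), and the others on lines 3857 to 5041. Pik3c2b, a class II subunit gene, had 3, and Pik3r2, the gene of the regulatory subunit p85beta, 2, as did Pik3r4. Pik3c2g, Pik3c3 and Pik3r3 had none.

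Of 12 other genes of inositol phosphate or inositol lipid phosphatases, 4 had a peak (33.3%). In the class of greatest length, 32.1% of all protein-coding genes had one. The median length of the list was 68.7 kb, but it also held shorter genes, such as Inpp5j at 11.2 kb. Inpp4b, whose product acts on a lipid made from PIP3, had 2, both inside the gene, and Inpp4a, Inpp5a and Inpp5k had 1 each. Inppl1, which encodes SHIP2, the relative of SHIP1, had none.

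In the Akt cascade, 7 of 19 genes had a peak (36.8%), and the median length was 76.2 kb. The same 32.1% is not matched to this list, which holds genes as short as Mlst8, at 5.6 kb. Phlpp1, whose product dephosphorylates Akt, had 6, of which 4 lay inside the gene and 2 within 20 kb of it. Foxo1, which encodes a transcription factor that Akt inhibits, had 2, as did Mlst8 and Rptor, which encode subunits of mTOR complexes. The Foxo1 and Rptor peaks lay inside the genes, whereas the Mlst8 peaks had midpoints 20 and 18812 bp outside the gene. Pdpk1, which encodes the kinase that activates Akt, Mtor, Rictor, Tsc1 and Tsc2 were among the 12 without one.

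Among 17 genes of upstream receptors and adaptors, 9 had a peak (52.9%). Syk, a kinase of the pre-B cell receptor, had 4. Blnk, which is altered on 1 chromosome copy in these cells, and Il7r had 3 each. The Il7r peaks lay inside the gene and 13823 and 19337 bp outside it. Dok1, an adaptor gene, had 1, as did Dok2, Fcgr2b, Insr, Irs2 and Lyn. The adaptor genes Gab1, Gab2 and Gab3 had none, nor did Kit, Flt3 or Igf1r.

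Of 15 genes whose products bind PI3 kinase lipids or act below them, 13 had a peak (86.7%). Cyth1, a lipid-binding exchange factor, had 11, Dapp1, a B cell adaptor that binds PIP3, 3, and Plcg1 and Plcg2, which encode phospholipases C, 2 each, as did Sgk1, Vav1 and Vav3. Plekha1 and Dock2 had none, the latter at a length of 557.1 kb.

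**Figure D5:**
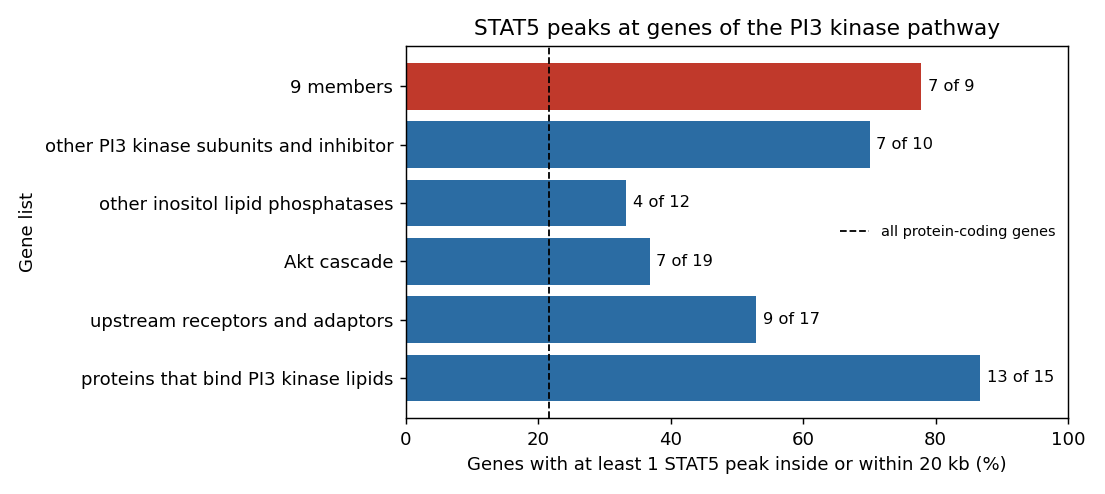
Bars give the share of genes in each list with at least 1 STAT5 peak inside or within 20 kb (x axis, %), with counts beside them, and the dashed line is the share over all protein-coding genes, 21.6%. The dashed line is not matched for gene length. The 9 members stand at 7 of 9 and the Akt cascade at 7 of 19. Genes whose products bind PI3 kinase lipids or act below them stand at 13 of 15. List names are short labels that not every product fits.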

How the data were processed

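The deposited values were the start and end of each STAT5 peak, in bp on mm10, per the labels, with a name and no score. Picard, MACS2 and BWA 0.7.4 appear in the submitters' processing notes, without roles. How the input was used, the settings, the peak threshold and the read depth were not given in the sources used here. Positions are counted from 1.

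Gene positions came from an NCBI RefSeq table of GRCm38.p6. Genes starting below 3000000 bp, except on Y, were left out as unplaced (340). Start sites and sequences came from the RefSeq promoter table, which gives 250 bases before and 50 from each start and held all 9 genes. It is not complete. Exons and introns were not determined. Counts used Python 3.11.15 with pandas 2.3.3, and counting was tested on simulated peaks. Genes were split into 5 classes of equal size by length. The genes and lists were chosen with earlier results of these data known. All 9 genes were named. In each list the up to 4 genes with the most peaks were named, ties by alphabet, so unnamed genes can have as many as the last named, with some without one, plus genes sharing a peak and the 3 genes most like Pik3cd. Some pathway genes are not reported here and were left out of the list counts. The Pik3r5 peak given singly was picked after its values were seen. Alternatives changed the distance, overlap, peak subset, joining and gene assignment.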

Additional observations from a re-analysis of the deposited data

How the results depend on the processing

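The share of all protein-coding genes with a peak moved with the setting, so the counts are given beside it. A peak was counted for 7 of the 9 genes and 38 pathway genes with flanks of 5 kb (14.3% of all genes), 7 and 45 with flanks of 50 kb (33.0%), 7 and 40 by any overlap of 1 bp (21.7%) or with neighbouring peaks joined (21.6%), 5 and 32 in the gene body alone (9.85%), and 8 and 38 by the nearest gene (16.5%). The median width was 336 bp for all 11 peaks and 336 bp for those inside genes, and either spacing of the motif was found in 1 promoter window. Keeping only peaks wider than 295 bp left 4 genes, 6 distinct peaks, a mean of 0.667 per gene and 28 pathway genes, where 12.2% of all protein-coding genes had one. Keeping the first 2954 lines left 3 genes, 4 peaks, a mean of 0.444 and 24 pathway genes, against the same 12.2% of all genes. Pik3cd had 3 peaks wider than 295 bp, 2 in the first 2954 lines and 2 after joining. Both subsets drop peaks by construction. Read depth is unknown, so whether Pik3cb and Pik3cg lacked binding could not be determined. No paired analysis was possible because each group has 1 sample and no test was made.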
